A study of Mus musculus with 15 samples.

Results

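Non-lesional skin of mice lacking OTULIN in keratinocytes was compared with WT skin at the level of the transcriptome, across all genes. The comparison used 10 of the 15 libraries of the series, chosen by their labels: 5 libraries labelled OTULIN E-KO non-lesional (replicates 3, 6, 9, 12 and 15) and 5 labelled WT (replicates 1, 4, 7, 10 and 13). All mice were 3-week-old C57BL/6 animals. According to the methods of the study, both groups carried *loxP*-flanked *Otulin* alleles (*Otulin* fl/fl), and the WT controls were littermates without Cre, whereas the OTULIN E-KO mice expressed Cre recombinase from the keratin 14 (K14) promoter, which is active in keratinocytes. The remaining 5 libraries came from lesional skin of OTULIN E-KO mice and are mentioned only where they bear on a non-lesional library. Fibroblasts, immune cells, muscle, fat and nerve in the samples were not targeted by K14-Cre. The question addressed is which transcripts differ in mutant skin that looks unaffected.

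OTULIN is a deubiquitinase that removes linear (M1-linked) ubiquitin chains, which are assembled by the LUBAC ligase and control inflammatory and cell death signalling downstream of receptors such as TNFR1. Type I interferons (IFNs) are secreted cytokines that act through the receptor IFNAR, the kinases JAK1 and TYK2 and a transcription factor complex that contains STAT2 and IRF9. This complex binds the IFN-stimulated response element (ISRE) in the promoters of IFN-stimulated genes, whose products include antiviral effectors, nucleic acid sensors and components of MHC class I presentation, as well as STAT2, IRF9 and IRF7 themselves.

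The core letters of the ISRE, GAAA and a second GAAA 2 bases further on (TTTC and TTTC with the same gap when read from the opposite strand), were searched on both strands in the 250 bases before the annotated start of each gene in RefSeq on GRCm38.p6. They were present for 936 of 27025 genes with such a window (3.46%). Among 84 genes in 3 lists of antiviral effectors (IFIT and OAS families, other antiviral effectors, and ISG15 conjugation with PARP9-DTX3L), 69 had a window and 31 of these held the letters (44.9%). For the list of guanylate-binding proteins (GBP) and immunity-related GTPases (IRG) the count was 10 of 13 (76.9%), and for nucleic acid sensing and fatty acid synthesis 0 of 19 and 0 of 15. The stretches below, given on the plus strand with the motif in capitals, are shown because they belong to named IFN-related genes that hold the letters. *Ifit1*, whose stretch lies at chr19:34640784-34640833 and holds the motif on the minus strand in 2 copies, had the smallest p of all genes. *Ddx60* (chr8:61928048-61928086, motif on the plus strand), *Stat2* (chr10:128270256-128270305) and *Gbp7* (chr3:142530263-142530312) each held 1 copy in the part printed.
Ifit1: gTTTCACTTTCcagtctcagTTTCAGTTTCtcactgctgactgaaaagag
Ddx60: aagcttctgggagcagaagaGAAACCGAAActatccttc
Stat2: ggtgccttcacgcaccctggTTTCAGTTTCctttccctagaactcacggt
Gbp7: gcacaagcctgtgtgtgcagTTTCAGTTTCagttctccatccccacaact
A match in these letters is a description of the window. *Ifitm3*, *Ifi44*, *Irf9*, *Oasl2*, *Dtx3l*, *Irf7*, *H2-D1* and *Ifih1* had a window without the letters. Among tested effector genes with a window, 3 of 13 with an unadjusted p under 0.05 (23.1%) and 9 of 27 of the others (33.3%) held them.

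The assay was QuantSeq, a 3′ mRNA method in which sequencing covers the 3′ end of polyadenylated transcripts. The authors deposited raw counts per gene for 55487 genes. Library totals ran from 2248846 to 2567138 counts in WT (median 2371559) and from 2237906 to 2409357 counts in non-lesional libraries (median 2347811), with 7.42% to 11.2% of counts from mitochondrial genes. Expression is given below as TMM-normalised CPM (counts over the library size, scaled to a fixed total), always in the order of replicates 1, 4, 7, 10 and 13 for WT and 3, 6, 9, 12 and 15 for non-lesional skin. The comparison used the quasi-likelihood test of edgeR on the 13021 genes that passed the filter on low counts, with Benjamini-Hochberg adjustment over all of them. All log2 fold changes are of non-lesional over WT, with the standard error (SE) from this fit. Replicates are separate samples by their labels, and where they were not separate mice the p-values measure only the spread between samples.

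No gene passed an adjusted p of 0.05 (0 of 13021, 0%), and the smallest adjusted p was 0.723, from the same edgeR test. At an unadjusted p under 0.05, 241 genes were higher (1.85%) and 170 lower (1.31%) in non-lesional skin, together 411 (3.16%). DESeq2's Wald test called 1 gene at an adjusted p under 0.05, *Ifit1*. For 51 genes (0.392%) all non-lesional values exceeded all WT values, and for 35 genes (0.269%) they were all below. The median log2 fold change over all tested genes was -0.0027. The values below are therefore given gene by gene and list by list, and "higher" and "lower" describe group means without a call at the adjusted threshold.

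The samples were skin by their markers, and the targeted gene did not separate the groups. All 10 epidermal keratins of the marker list had counts, and the summed CPM of the list ranged from 10416 to 15118 in WT and from 12388 to 15095 in non-lesional libraries. *Otulin* (15:27542635-27630693, minus strand, GRCm38) had 23, 28.2, 28.5, 12.4 and 23.1 CPM in WT and 31.0, 21.5, 28.7, 22.2 and 27.4 CPM in non-lesional skin (log2 fold change 0.18, SE 0.20, unadjusted p = 0.375 from edgeR). The counts cover whole skin and whole genes, so cells without Cre and transcripts that keep the counted 3′ end contribute to these values. *Krt14*, the gene whose promoter drives Cre, had a log2 fold change of 0.11 (SE 0.25).

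Several libraries stood apart. Non-lesional replicate 3 carried transcripts that were abundant in 2 of the 5 lesional libraries: it had 260 counts of *S100a8*, an alarmin of neutrophils and inflamed keratinocytes, against 5 to 27 in the other non-lesional and 3 to 10 in the WT libraries, while the 2 lesional libraries had 2823 and 4802. *Krt6b*, a keratin of stressed epidermis, had 495 counts in this library against 2 to 23 in the other non-lesional and 3 to 44 in the WT libraries. WT replicate 1 had 2488 counts of *Tchh* (trichohyalin of the inner root sheath of hair), against 47 to 280 in the other WT and 50 to 89 in the non-lesional libraries. *Xist* was at 1147 CPM in WT replicate 1 and 926 CPM in non-lesional replicate 12 with 0 counts of the Y-linked gene *Ddx3y*, and at most 3.97 CPM in the other 8 libraries, so each group held 1 female and 4 male libraries by these genes. These genes were chosen after their values were seen, and many list values below are also given with 1 of the 10 libraries left out.

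**Figure D1:**
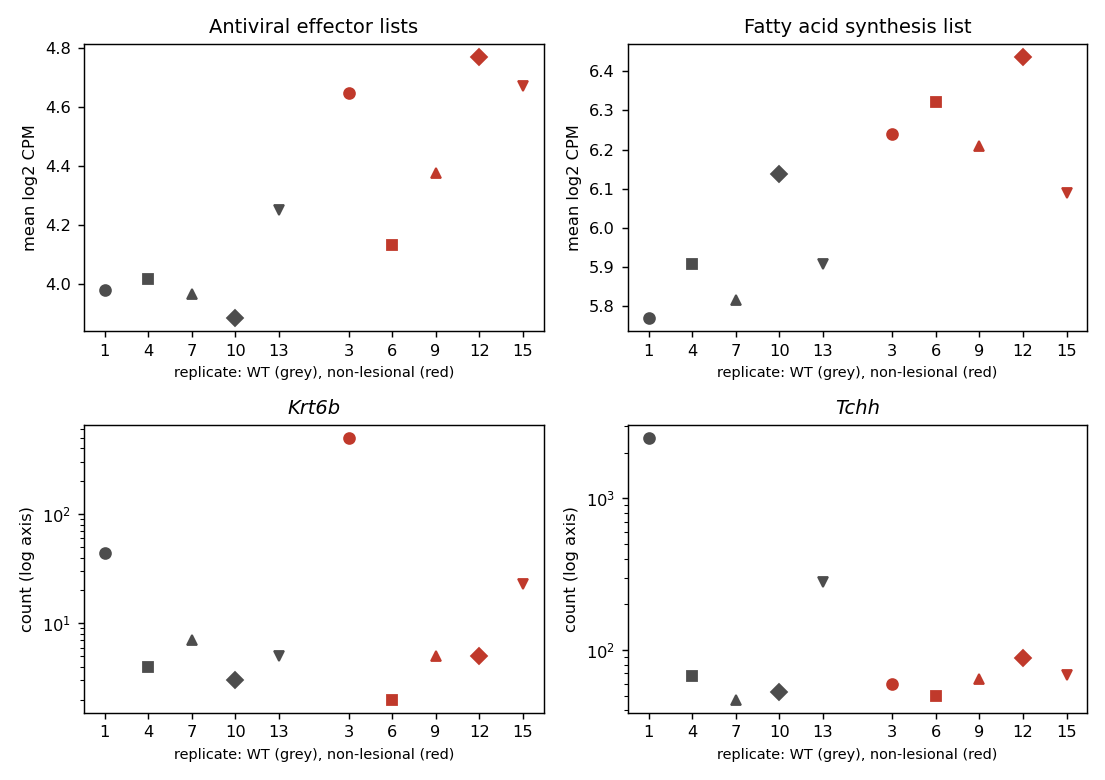
Values of each WT (grey) and non-lesional (red) library, by replicate number: mean log2 CPM of the tested members of the antiviral effector lists and of the fatty acid synthesis list, and raw counts of *Krt6b* and *Tchh* on log axes. *Krt6b* stands out in non-lesional replicate 3 (495 counts) and *Tchh* in WT replicate 1 (2488 counts), whereas the effector mean is lowest among non-lesional libraries in replicate 6 (4.13).

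IFN-stimulated genes led the ranking by p. Of the 20 genes with the smallest p among those higher in non-lesional skin, 11 were in the IFN-related lists (55.0%), as were 28 of the 241 higher genes with an unadjusted p under 0.05 (11.6%), whereas these lists held 125 of all 13021 tested genes (0.960%). Of the 170 lower genes 1 was in the lists (0.588%), *Unc93b1*. The lists were chosen with earlier results of these data known, so these shares are a description and no independent test. In these whole-skin samples, more RNA per cell and more cells of a type cannot be told apart.

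Antiviral effectors included the genes with the smallest p. *Ifit1*, which binds viral RNA lacking 2′-O methylation of the cap, had 2.34, 1.32, 5.87, 5.54 and 2.28 CPM in WT and 17.5, 10.7, 10.8, 28.7 and 8.82 CPM in non-lesional skin. The groups did not overlap, with a 4.43-fold higher fitted level (log2 fold change 2.15, SE 0.41, unadjusted p = 6.5e-05, adjusted p = 0.723 from edgeR). Its raw counts were 3 to 13 in WT and 20 to 71 in non-lesional libraries. *Oasl2*, a member of the oligoadenylate synthetase-like family, had 8.58, 5.29, 7.23, 7.67 and 12.9 CPM in WT and 37.3, 9.87, 15.8, 48.5 and 29.1 CPM in non-lesional skin (log2 fold change 1.74, SE 0.40). Only replicate 6 lay within the WT range.

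The other 12 of the 15 IFIT and OAS genes had too few counts to be tested. They summed to 153 counts over the 5 WT and 244 over the 5 non-lesional libraries, and 9 of the 12 had a higher mean CPM in non-lesional skin. *Ifit2* (37 and 33 counts) and *Ifit3b* (18 and 19 counts) did not follow *Ifit1*, whereas *Oas1b* (8 and 25 counts) and *Oas1c* (24 and 52 counts) were higher in non-lesional skin. These 4 genes were picked after their values were seen.

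*Rtp4*, an IFN-induced chaperone with antiviral activity, had 5.46, 6.18, 2.71, 4.69 and 7.59 CPM in WT and 22, 9.01, 8.32, 33.5 and 18.1 CPM in non-lesional skin, again without overlap (log2 fold change 1.75, SE 0.38). *Ifi44* had 3.51, 2.21, 0.904, 0.852 and 3.79 CPM in WT and 11.7, 4.72, 4.58, 10.1 and 9.27 CPM in non-lesional skin (log2 fold change 1.78, SE 0.42). Both rest on low counts, at most 20 per WT library, and both were lowest in replicates 6 and 9 among the non-lesional libraries. *Ddx60*, a helicase that promotes RIG-I-like receptor signalling, had 8.58, 3.97, 9.04, 7.67 and 9.86 CPM in WT and 29.7, 4.72, 20, 31.9 and 24.3 CPM in non-lesional skin (log2 fold change 1.49, SE 0.39). Replicate 6 was inside the WT range, and the other 4 exceeded every WT library. *Ifi27l2a* was at 8.97 to 34.5 CPM in WT and 29.1 to 67.1 CPM in non-lesional skin (log2 fold change 1.19, SE 0.31).

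*Ifitm3*, a membrane protein that blocks fusion of enveloped viruses, had the second smallest p of all genes with a smaller fold change. It had 250, 266, 301, 267 and 318 CPM in WT and 426, 299, 424, 538 and 496 CPM in non-lesional skin, and all but replicate 6 exceeded every WT library (log2 fold change 0.64, SE 0.13, unadjusted p = 0.000111 from edgeR). Of 11 tested genes of ISG15 conjugation and the PARP9-DTX3L complex, 9 were higher, with a median of 0.44. *Usp18*, the protease that removes ISG15 and restrains IFNAR signalling, had 3.51, 4.85, 3.62, 1.70 and 3.79 CPM in WT and 11.7, 3.00, 7.49, 14.1 and 13.7 CPM in non-lesional skin (log2 fold change 1.5, SE 0.38). The ubiquitin ligase gene *Dtx3l* (15.4 to 22.2 CPM in WT, 22.9 to 37.2 CPM in non-lesional skin, log2 fold change 0.68, SE 0.18) and the ADP-ribosyltransferase gene *Parp14* (20.7 to 36.0 and 38.6 to 52.9 CPM, log2 fold change 0.53, SE 0.16) did not overlap between groups. The exons of *Dtx3l* overlap those of *Parp9* on the opposite strand, and no strand setting of the counting is given, so reads of the pair cannot be told apart. *Parp9*, read for this reason, had a log2 fold change of 0.28 (SE 0.24). The exons of *Rtp4*, *Usp18* and *Parp14* overlap those of Gm-numbered gene models, so some of their counts are uncertain too.

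**Figure D2:**
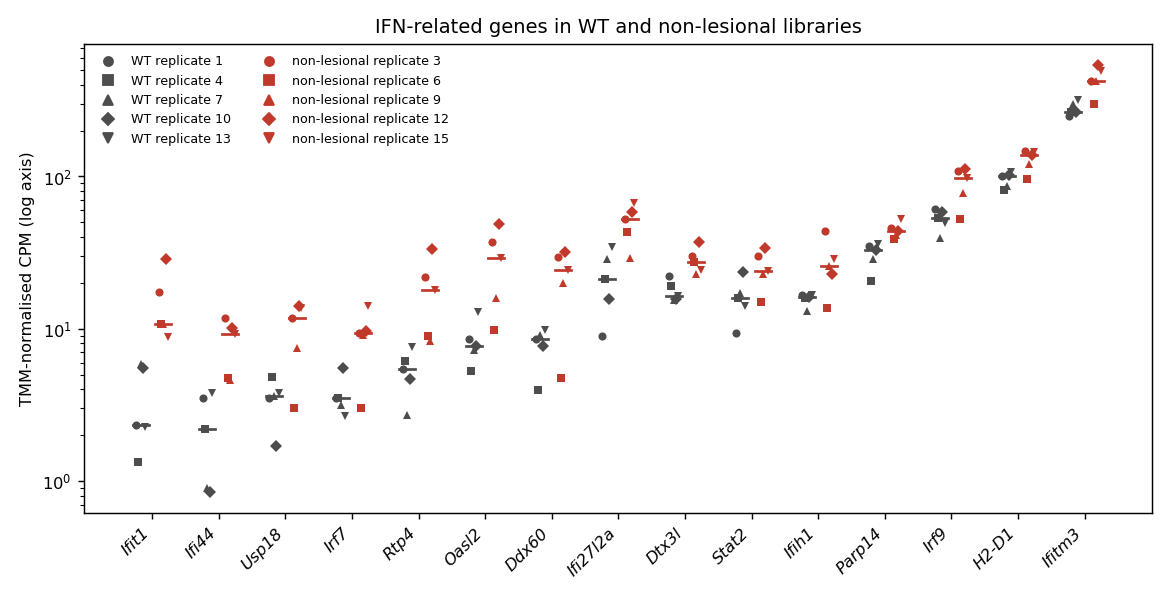
TMM-normalised CPM (log axis) of 15 named IFN-related genes in each WT (grey) and non-lesional (red) library, with a marker shape for each replicate and a bar at the group median. *Ifit1*, *Ifi44*, *Rtp4*, *Dtx3l* and *Parp14* do not overlap between groups. For *Ddx60*, *Oasl2*, *Stat2*, *Ifitm3*, *Usp18*, *Irf7*, *Irf9*, *Ifih1* and *H2-D1* replicate 6 (red square) lies within the WT values. Replicate 9 lies within them for *Stat2* and *Ifi27l2a*.

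Of the 84 genes in the 3 effector lists, 50 passed the filter on low counts. Of these, 45 had a positive and 5 a negative log2 fold change, 18 were higher at an unadjusted p under 0.05 (36.0%, against 1.85% of all tested genes), and the median was 0.32. The 18 became 11 when only genes with at least 10 counts in every sample were tested, and 7 when all 15 samples entered the fit. Besides the genes already described, the 18 were *Eif2ak2*, *Parp12*, *Apol7a*, *Herc6*, *Trim34a*, *Ifi35*, *Ifi27* and *Rsad2*, named for their p. The log2 fold changes of these added genes lay between 0.51 (*Ifi27*, SE 0.19) and 1.87 (*Apol7a*, SE 0.59). *Eif2ak2* encodes the RNA-activated kinase PKR, and *Rsad2* encodes viperin. The filter needs only 5 libraries with enough counts, so a gene can pass it through its higher group alone. With a criterion blind to the groups, a mean of at least 10 counts over the 10 libraries, 47 of 52 members were higher with a median of 0.36, against 6350 of 13021 genes and a median of -0.0055 over all genes meeting it. Of the 82 members with any count, 71 had a higher mean CPM in non-lesional skin (86.6%, against 51% of the 27255 genes with any count).

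**Figure D3:**
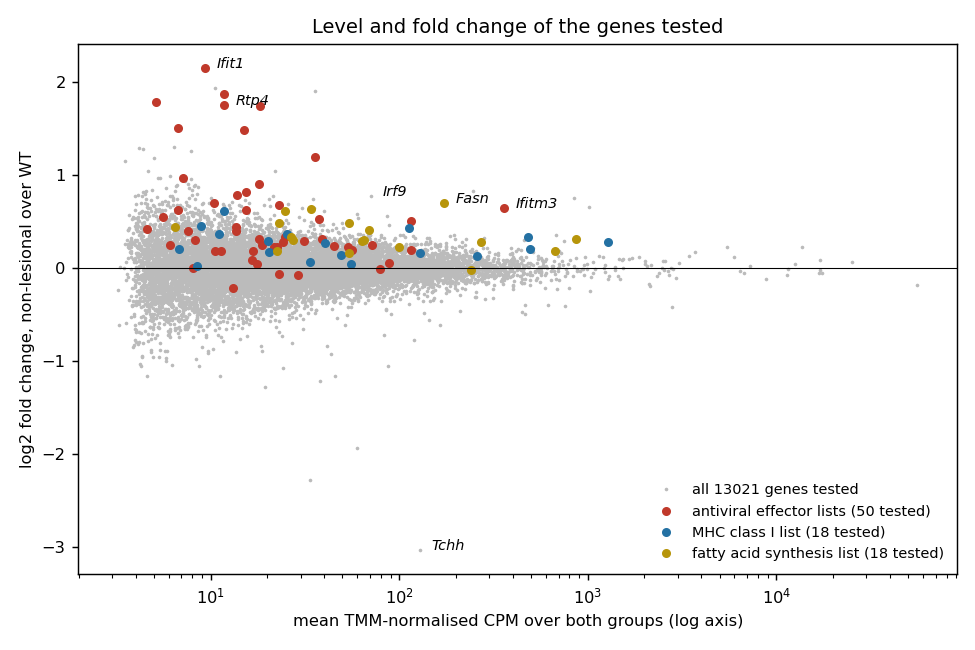
Log2 fold change of non-lesional over WT against the mean TMM-normalised CPM over both groups (log axis) for the 13021 tested genes (grey), with 50 members of the antiviral effector lists (red), 18 of the MHC class I list (blue) and 18 of the fatty acid synthesis list (yellow). Effectors reach 2.15 at low levels, *Ifitm3* lies at 0.64 at a high level, and the lowest point is *Tchh*.

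The non-lesional libraries differed in how far they departed from WT. The mean log2 CPM of the 50 tested effectors was 3.98, 4.02, 3.97, 3.88 and 4.25 in WT and 4.65, 4.13, 4.37, 4.77 and 4.67 in non-lesional skin. Replicate 6 thus lay below WT replicate 13, and the other 4 were higher than every WT library. Of the 18 effectors with an unadjusted p under 0.05, replicate 12 exceeded every WT library in 18, replicates 3 and 15 in 17 each, replicate 9 in 12 and replicate 6 in 9. The 18 were picked by p in this same comparison, which favours values above WT, so these counts only compare the libraries with each other. Among WT libraries, replicate 13 was the highest in 11 of the 18. Without non-lesional replicate 3, the library with lesion-type transcripts, 46 of 51 tested effectors were higher, 15 had an unadjusted p under 0.05 and the median was 0.37. Without non-lesional replicate 6 these were 46 of 50, 21 and 0.43, and 5 genes (*Ddx60*, *Ifitm3*, *Irf9*, *Oasl2* and *Apol7a*) had an adjusted p under 0.05 in edgeR. Without non-lesional replicate 12 they were 46 of 50, 15 and 0.30, and without WT replicate 1 47 of 52, 18 and 0.37. Over all 10 such fits the median ran from 0.29 to 0.47, the latter without WT replicate 13.

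Among the signalling genes of the pathway, *Irf9*, *Stat2* and *Irf7* had higher means in non-lesional skin, and the receptor genes had log2 fold changes near 0. *Irf9*, the DNA-binding subunit of the complex that contains STAT2, had 60.8, 53.4, 39.3, 58.4 and 49.3 CPM in WT and 108, 52.8, 77.8, 112 and 97.5 CPM in non-lesional skin (log2 fold change 0.78, SE 0.18, unadjusted p = 0.000529 from edgeR). Only replicate 6 was within the WT range. Its exons overlap on the same strand with those of *Rnf31*, which encodes the LUBAC subunit HOIP, and a read in the overlap was counted for both genes. *Rnf31* had a log2 fold change of -0.12 (SE 0.25). *Stat2* had 9.36, 15.9, 17.2, 23.4 and 14 CPM in WT and 30.1, 15, 22.9, 33.9 and 23.8 CPM in non-lesional skin (log2 fold change 0.66, SE 0.24). Replicates 3, 12 and 15 exceeded all WT libraries, and replicates 6 and 9 did not.

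*Irf7*, which amplifies IFN-α production once induced, had 3.51, 3.53, 3.16, 5.54 and 2.66 CPM in WT and 9.44, 3.00, 9.16, 9.70 and 14.1 CPM in non-lesional skin (log2 fold change 1.29, SE 0.36). Replicate 6 was again at the WT level. Its exons overlap those of *Phrf1* on the opposite strand. Of the 12 genes in the IRF list, *Irf9* included, 5 were higher and 7 lower (median -0.04, from -0.097 without non-lesional replicate 15 to 0.029 without non-lesional replicate 6). *Irf8*, the next in the list by p after *Irf7* and *Irf9*, had a log2 fold change of 0.30 (SE 0.20). The IFNAR subunit genes *Ifnar1* and *Ifnar2*, named for their role, had log2 fold changes of -0.11 (SE 0.44) and -0.13 (SE 0.13) with unadjusted p-values of 0.801 and 0.355 from edgeR. The sign for *Ifnar1* was positive with limma, with a Y-linked covariate, and without WT replicate 1 or non-lesional replicate 12. Over the 18 tested genes of receptors and JAK-STAT signalling the median was 0.024 with 10 higher (-0.034 without non-lesional replicate 3, with 6 higher, and 0.071 without non-lesional replicate 12). At an unadjusted p under 0.05, 3 were higher, among them *Irf9* and *Stat2* (16.7%, against 1.85% of all tested genes), and none was lower.

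Of 21 IFN genes (types I, II and III), 20 had no count in any of the 10 libraries, among them *Ifnb1* and *Ifng*. The exception was *Ifnk*, the keratinocyte IFN-κ gene, with 0, 3, 2, 0 and 0 counts in WT and 2, 3, 0, 2 and 1 counts in non-lesional libraries. A difference in IFN transcripts was therefore not detectable at this depth.

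Genes of nucleic acid sensing, guanylate-binding proteins and MHC class I were mostly higher by small amounts. *Ifih1*, which encodes the double-stranded RNA sensor MDA5, had 16.8, 15.9, 13.1, 16.2 and 16.7 CPM in WT and 43.6, 13.7, 25.8, 23 and 28.7 CPM in non-lesional skin (log2 fold change 0.77, SE 0.23). Replicate 3 was the highest and replicate 6 was within the WT range. *Adar*, the RNA-editing enzyme, had a log2 fold change of 0.41 (SE 0.19). *Unc93b1*, the chaperone of endosomal Toll-like receptors, was on the opposite side, with 29.6 to 37.2 CPM in WT and 18.4 to 31.8 CPM in non-lesional skin (log2 fold change -0.45, SE 0.17). Over 21 tested sensing genes, 18 were higher, with a median of 0.16. At an unadjusted p under 0.05, 2 were higher (9.52%, against 1.85% of all tested genes) and 1 was lower (1.31% of all tested genes were). Leaving out 1 library gave medians of 0.099 (without WT replicate 4) to 0.26 (without WT replicate 7), and 1 (without non-lesional replicate 9) to 4 (without non-lesional replicate 6) higher genes at that p.

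All 8 tested GBP and IRG genes had positive log2 fold changes (median 0.39). Of these *Gbp2* had an unadjusted p under 0.05 (12.5%, against 1.85% of all tested genes). Without WT replicate 13 there were 4 such genes, and without non-lesional replicate 6 there were 3. *Gbp2*, a GTPase that attacks pathogen vacuoles, was at 13.2 to 20.9 CPM in WT and 21.6 to 30.1 CPM in non-lesional skin, without overlap (log2 fold change 0.53, SE 0.18). *Gbp4* (log2 fold change 0.70, SE 0.35), whose exons overlap those of *Gbp8* and *Gbp9*, and *Gbp7* (0.28, SE 0.15) overlapped between groups. All 24 genes of MHC class I presentation and the immunoproteasome had a higher mean CPM in non-lesional skin. Of the 18 tested, 3 were higher at an unadjusted p under 0.05 (16.7%, against 1.85% of all tested genes) and the median was 0.24. *H2-D1*, a classical class I heavy chain, had 101, 81.6, 87.2, 102 and 107 CPM in WT and 146, 96.1, 121, 138 and 144 CPM in non-lesional skin (log2 fold change 0.43, SE 0.13). *H2-K1* (0.33, SE 0.13) and the immunoproteasome subunit gene *Psmb9* (0.61, SE 0.26) followed. The *Psmb9* exons overlap those of *Tap1* on the opposite strand. By the methods of the study only uniquely mapping reads were counted, so reads common to closely related class I genes may be missing. Without non-lesional replicate 3, 15 of the 18 were higher with a median of 0.21, and 1 had an unadjusted p under 0.05. Without non-lesional replicate 6, 8 of the 18 did (44.4%, against 1.83% of all genes tested in that fit), with a median of 0.32. MHC class II genes showed a median of 0.029 with 5 of 9 higher, and none had an unadjusted p under 0.05. Without non-lesional replicate 9, 1 was higher, with a median of -0.079, and without WT replicate 13, 6 were higher with a median of 0.10, 1 of them at an unadjusted p under 0.05. *Ciita*, their transactivator, had a log2 fold change of 0.43 (SE 0.23).

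**Figure D4:**
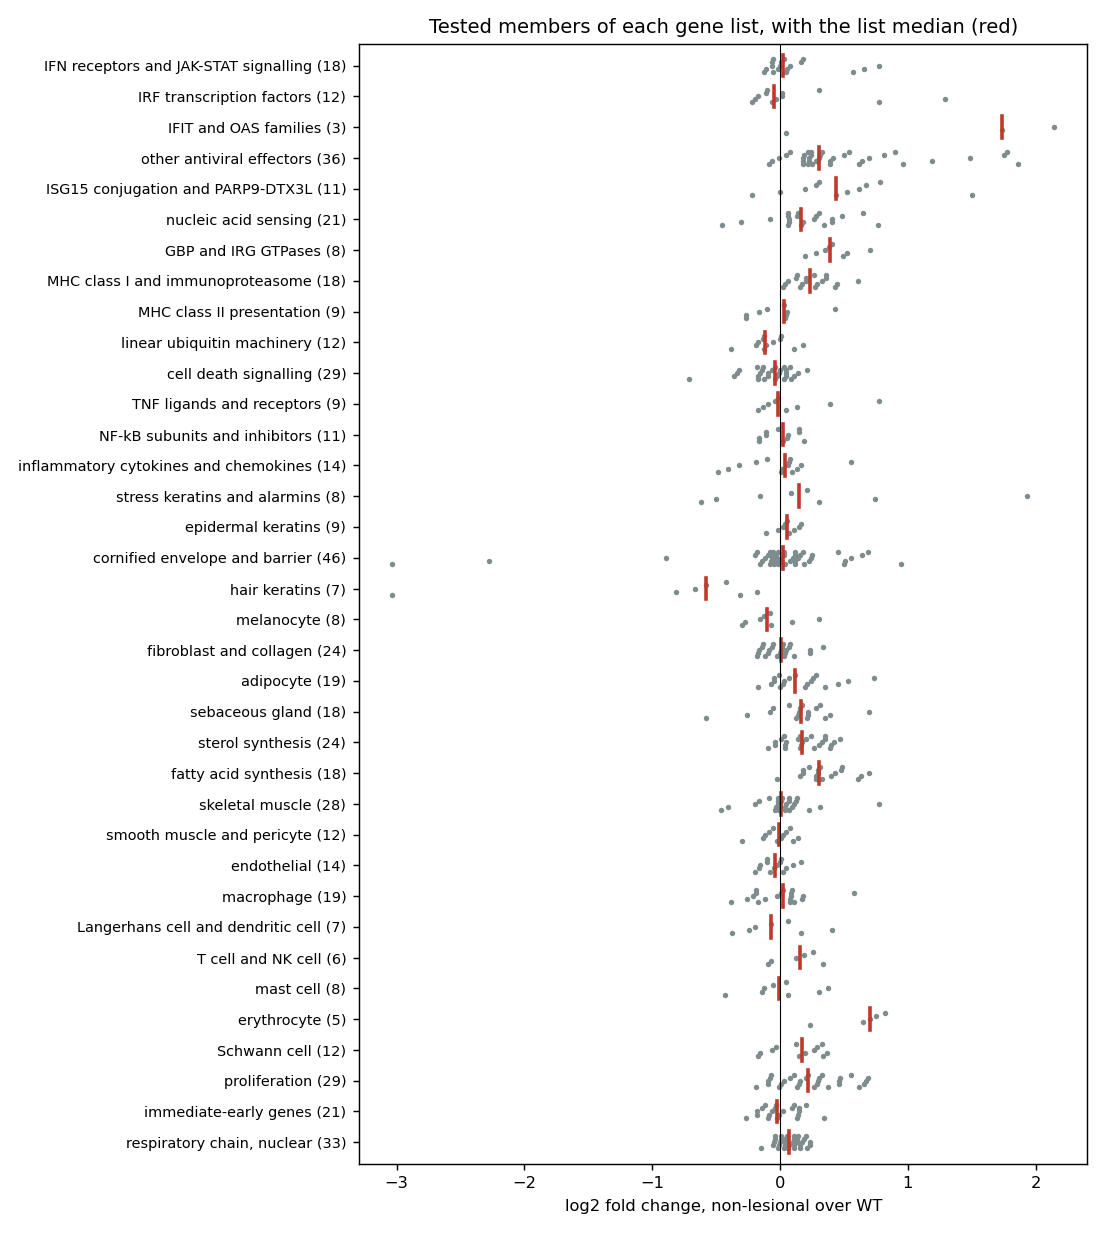
Log2 fold changes of non-lesional over WT for the tested members (grey points, number in parentheses) of 36 gene lists, with the list median as a red bar. The medians of the antiviral effector, GBP, MHC class I, erythrocyte and fatty acid synthesis lists lie to the right of 0 (0.24 to 1.74), that of hair keratins to the left (-0.58), and most cell type lists are centred near 0; the IFN ligand, X inactivation, Y-linked and neutrophil lists are not drawn.

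The lists of linear ubiquitin, cell death, NF-κB, TNF and inflammatory cytokine genes had medians between -0.12 and 0.040. Of 12 tested genes of the linear ubiquitin machinery, 3 were higher (median -0.12), with none at an unadjusted p under 0.05. The median was -0.024 with 5 of 12 higher without WT replicate 1, and -0.057 with 4 of 12 higher without non-lesional replicate 12. Without WT replicate 4 or 13, 1 member was lower at an unadjusted p under 0.05. *Ikbkg*, which encodes the linear ubiquitin reader NEMO, had a log2 fold change of -0.39 (SE 0.21). Of 29 cell death genes, 11 were higher (median -0.041, or -0.10 without non-lesional replicate 15) and none had an unadjusted p under 0.05, whereas 1 was lower at that p without non-lesional replicate 3 and without WT replicate 1. NF-κB subunits and inhibitors had a median of 0.023 (6 of 11 higher), which ran from -0.062 without non-lesional replicate 3 to 0.10 without WT replicate 13, with *Nfkb1* at 0.19 (SE 0.12) and *Nfkbia* at -0.17 (SE 0.10). Of 9 TNF ligand and receptor genes, 4 were higher (median -0.012), and the adaptor gene *Traf2* was the member with an unadjusted p under 0.05 (log2 fold change 0.77, SE 0.33). No member was higher at that p in 6 of the 10 fits that left out 1 library, and 2 were without non-lesional replicate 6. Of 43 inflammatory cytokine and chemokine genes only 14 were tested, with 9 higher, a median of 0.040 and none at an unadjusted p under 0.05. Leaving out 1 library gave medians from -0.044 (without non-lesional replicate 15) to 0.13 (without WT replicate 13), 4 of 14 higher without non-lesional replicate 3, and 1 lower gene at that p in 5 of 10 fits. Among them were the IFN-inducible chemokine gene *Cxcl9* (log2 fold change 0.55, SE 0.37) and the keratinocyte chemokine gene *Ccl27a* (-0.48, SE 0.23).

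Stress keratins and alarmins depended on single libraries. Of 29 genes 26 had counts, 22 of them with a higher mean CPM in non-lesional skin, and the 18 of these that were not tested summed to 208 counts in WT and 1386 in non-lesional libraries, 1178 of the latter in replicate 3 and 208 in the other 4. With a mean of at least 10 counts over the 10 libraries, 9 of 12 were higher, with a median of 0.52. The filter passed 8 genes, with 5 higher and a median of 0.15. Without non-lesional replicate 3 the median was -0.52 with 3 of 8 higher, and without WT replicate 1 it was 0.49 with 8 of 8 higher. *Stfa3*, a cysteine protease inhibitor of inflamed skin, had 61.1 CPM in non-lesional replicate 3 and 2.28 to 8.89 CPM in the other 9 libraries. *Tgm1*, which cross-links the cornified envelope, was the member with the smallest p (2.65 to 9.48 CPM in WT, 8.15 to 14.5 CPM in non-lesional skin, log2 fold change 0.74, SE 0.32). Epidermal keratins had a median of 0.052 (-0.026 without WT replicate 4, 0.10 without WT replicate 13) and log2 fold changes of 0.17 for the suprabasal *Krt10* (SE 0.19) and -0.11 for the basal *Krt15* (SE 0.14).

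Genes of lipid synthesis were also among the higher genes with the smallest p. *Fasn*, fatty acid synthase, had 101, 101, 132, 179 and 149 CPM in WT and 197, 268, 175, 244 and 186 CPM in non-lesional skin (log2 fold change 0.69, SE 0.16, unadjusted p = 0.00054 from edgeR). The groups overlapped only by WT replicate 10 and non-lesional replicate 9. *Acaca*, acetyl-CoA carboxylase, which makes the malonyl-CoA used by *Fasn*, had 27.7, 23.4, 31.2, 27.7 and 24.3 CPM in WT and 53.0, 30.5, 40.4, 41.6 and 42.8 CPM in non-lesional skin (log2 fold change 0.63, SE 0.16). *Acly*, which supplies cytosolic acetyl-CoA, had 66.3, 60.9, 58.7, 58.4 and 55.0 CPM in WT and 88.5, 81.1, 69.1, 77.6 and 79.9 CPM in non-lesional skin, without overlap (log2 fold change 0.40, SE 0.11). *Pcx*, pyruvate carboxylase, was at 14 to 17.5 CPM in WT and 17.1 to 30.3 CPM in non-lesional skin (log2 fold change 0.74, SE 0.19). Replicate 6, the lowest non-lesional library for the effector mean, had the highest *Fasn* value. The mean log2 CPM of the fatty acid synthesis list was highest in replicate 12 (6.44), which was also highest for the effector mean (4.77).

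All 18 genes of the fatty acid synthesis list were tested: 17 were higher, 5 were higher at an unadjusted p under 0.05 (27.8%, against 1.85% of all tested genes), and the median was 0.31. The mean log2 CPM of this list was 5.77 to 6.14 in WT and 6.09 to 6.44 in non-lesional libraries. Without non-lesional replicate 3 the counts were 17 of 18 and 5 with a median of 0.31, and without WT replicate 1 they were 17 of 18 and 5 with a median of 0.29. Over all 10 such fits the median ran from 0.27 to 0.40. Of 24 tested sterol synthesis genes, 21 were higher, 6 of them at an unadjusted p under 0.05 (25.0%), and the median was 0.17. *Acat2*, which makes acetoacetyl-CoA in the cytosol, had a log2 fold change of 0.42 (SE 0.16), and *Msmo1*, a sterol demethylating oxidase, of 0.31 (SE 0.11). Without non-lesional replicate 12, 2 sterol genes (8.33%) had an unadjusted p under 0.05, and without WT replicate 1 or non-lesional replicate 3 there were 4.

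Sebaceous gland and fat tissue, which also express these genes, were examined through their markers. Of 18 tested sebaceous markers, 14 were higher (median 0.16), *Fasn* being a member of this list too, with *Mgst1* at 0.35 (SE 0.18) and *Scd1* at 0.31 (SE 0.18). Without non-lesional replicate 3, 12 of 18 were higher with a median of 0.063, and without non-lesional replicate 15 the median was 0.28. The summed CPM of the sebaceous list ranged from 1859 to 2687 in WT and from 2095 to 3277 in non-lesional libraries. Of 19 adipocyte markers, 14 were higher (median 0.12, or -0.0051 with 9 higher without WT replicate 7, and 0.21 without WT replicate 13), and the adipokine gene *Retn* had an unadjusted p under 0.05 (11.7 to 42.5 CPM in WT, 30.4 to 60.5 CPM in non-lesional skin, log2 fold change 0.74, SE 0.28). Without WT replicate 13, 5 of the 19 were higher at that p, and without non-lesional replicate 6 none was. The part of these cell types in the lipid synthesis values was not tested.

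The remaining genes with the smallest p among those higher were *Mitd1* (log2 fold change 0.61, SE 0.16), a cytokinesis factor whose exons overlap those of *Lipt1* on the opposite strand, the doublesex-related factor gene *Dmrta1* (1.26, SE 0.36), the gamma-glutamyltransferase family gene *Ggt6* (0.71, SE 0.20), the chaperone gene *Hsp90aa1* (0.48, SE 0.14) and *Cyp20a1* (0.67, SE 0.20). *Ggt6* was at 7.02 to 12.9 CPM in WT and 15 to 18 CPM in non-lesional skin, without overlap. Of the 10 lower genes with the smallest p, 3 did not overlap between groups, against 35 of all 13021 tested genes (0.269%). Picking genes by p favours such separation. *Zcchc8*, a subunit of the nuclear exosome targeting complex, had 65.9, 70.1, 63.3, 65.6 and 53.5 CPM in WT and 49.4, 47.2, 47.9, 48.1 and 44.6 CPM in non-lesional skin (log2 fold change -0.42, SE 0.12, unadjusted p = 0.00173 from edgeR). The cytochrome P450 gene *Cyp4f13* had 11.7, 11.5, 15.8, 15.8 and 13.3 CPM in WT and 8.54, 9.87, 6.24, 8.89 and 7.5 CPM in non-lesional skin (log2 fold change -0.72, SE 0.22). The third was the phosphoinositide phosphatase gene *Inpp5f* (33.0 to 41.1 and 22.5 to 31.6 CPM, log2 fold change -0.44, SE 0.14).

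The other lower genes by the same rank were the bicarbonate transporter gene *Slc4a4* (log2 fold change -0.54, SE 0.17), the hair and epidermal transglutaminase gene *Tgm3* (-0.90, SE 0.28), *Cecr2* (-0.50, SE 0.16), the receptor activity-modifying protein gene *Ramp3* (-0.98, SE 0.32), the hair keratin gene *Krt32* (-0.58, SE 0.19), *Gm42635* (-0.74, SE 0.25) and *Mfsd7a* (-0.87, SE 0.29). Hair keratin and hair follicle genes were lower as a list, with 7 of 7 tested genes negative (median -0.58, or -0.26 without WT replicate 1). Over the 15 members with a mean of at least 10 counts the median was -1.10. The 22 untested members summed to 1808 counts in WT, 1470 of them in replicate 1, and to 300 counts in non-lesional libraries. *Tchh* had a log2 fold change of -3.04 (SE 1.24) and *Tchhl1*, its neighbour, of -2.28 (SE 0.89), and both were highest in WT replicate 1. Without that library they had log2 fold changes of -0.69 and -1.03.

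Medians over the tested markers of other cell types were 0.02 for macrophages (11 of 19 higher), -0.07 for Langerhans and dendritic cells (3 of 7), 0.16 for T and NK cells (4 of 6), 0.00 for mast cells (4 of 8), -0.04 for endothelium (6 of 14), 0.01 for fibroblasts and collagens (13 of 24), 0.01 for skeletal muscle (17 of 28), -0.0076 for smooth muscle and pericytes (6 of 12) and -0.10 for melanocytes (2 of 8). When 1 library was left out, the macrophage median ran from -0.092 (without non-lesional replicate 15) to 0.19 (without WT replicate 13), that of T and NK cells from 0.075 (without WT replicate 1) to 0.27 (without non-lesional replicate 15) and that of mast cells from -0.12 (without non-lesional replicate 9) to 0.30 (without WT replicate 13). The fibroblast median ran from -0.13 (without WT replicate 10) to 0.11 (without WT replicate 13), the skeletal muscle median from -0.072 (without WT replicate 1) to 0.17 (without WT replicate 10), and the endothelial median was 0.041 without WT replicate 4. The Langerhans and dendritic cell median ran from -0.16 (without WT replicate 4) to -0.0025 (without non-lesional replicate 15), the smooth muscle median from -0.064 (without WT replicate 13) to 0.050 (without WT replicate 1), and the melanocyte median from -0.19 (without WT replicate 1) to 0.0081 (without WT replicate 13). Among the macrophage and T cell markers with the smallest p in their lists were the myeloid gene *Aif1* (log2 fold change 0.58, SE 0.29), the resident macrophage gene *Cd163* (-0.38, SE 0.30) and the T cell receptor gene *Trbc2* (0.19, SE 0.17). Of 13 neutrophil genes 1 was tested, and the summed CPM of the list was 7.67 to 17.9 in WT and 10.7 to 225 in non-lesional libraries, with the top value in replicate 3. The summed CPM was 738 to 1468 in WT and 878 to 1156 in non-lesional libraries for the macrophage list, and 165 to 249 and 214 to 276 for T and NK cells. The part of immune cells in the effector values was not tested.

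Of the remaining lists, 24 of 46 cornified envelope genes were higher (median 0.021, from -0.065 without WT replicate 4 to 0.088 without WT replicate 13), 9 of 21 immediate-early genes (median -0.024, from -0.14 without non-lesional replicate 9 to 0.067 without non-lesional replicate 6) and 25 of 33 nuclear respiratory chain genes (median 0.074, from 0.011 without WT replicate 1 to 0.15 without WT replicate 10). At an unadjusted p under 0.05, 1 cornified envelope gene was higher (2.17%, against 1.85% of all tested genes) and 3 were lower (1.31% of all tested genes were). With 1 library left out, 0 to 8 were higher (8 without non-lesional replicate 6) and 1 to 3 were lower.

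Erythrocyte, Schwann cell and proliferation genes were higher in part. All 5 tested erythrocyte genes were higher (median 0.71), with *Hbb-bs* at 627 to 995 CPM in WT and 708 to 2199.8 CPM in non-lesional skin (log2 fold change 0.65, SE 0.28) and *Hba-a1* at 0.75 (SE 0.36). Replicate 12 was the highest library for 10 of the 18 effectors picked by p, and also for haemoglobin. Without it the erythrocyte median was 0.34. None had an unadjusted p under 0.05 in 5 of the 10 fits that left out 1 library, and 4 of 5 had without non-lesional replicate 3 (median 0.87). Of 12 Schwann cell genes 8 were higher (median 0.17). At an unadjusted p under 0.05, 2 were higher (16.7%, against 1.85% of all tested genes), among them the myelin gene *Pmp22* (log2 fold change 0.34, SE 0.12). The median was 0.11 without WT replicate 7 and 0.24 without non-lesional replicate 6. Of 29 proliferation genes 23 were higher (median 0.22), with *Cdc20* (0.56, SE 0.25), *Plk1* (0.62, SE 0.27) and *Ccnb1* (0.65, SE 0.33) leading, and without WT replicate 1 the counts were 18 of 29 with a median of 0.10, and without WT replicate 4 the median was 0.43. The number higher at an unadjusted p under 0.05 was 2 (6.9%, against 1.85% of all tested genes), 0 without non-lesional replicate 6 and 6 without WT replicate 4.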

How the data were processed

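QuantSeq 3′ mRNA libraries (FWD kit) of mouse skin were prepared by the authors, who clipped reads with cutadapt 2.10, mapped them to GRCm38 with Subread, filtered the matches with SAMtools 1.7-2 and deposited raw counts per gene from featureCounts 2.0.1, counting a read for each gene it overlapped. Versions are those of the submitters' processing notes. The annotation release and strand setting are not given in the sources used here, and the methods name the same RNA integrity limit for excluding and for including samples. The authors also deposited CPM, counts over library totals, which were used only as an alternative scaling. The 92 spike-in rows held 0 counts and were left out.

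Counts of the 10 libraries were normalised with TMM, filtered with filterByExpr and compared in edgeR 4.0.16 (R 4.3.3, quasi-likelihood test with robust estimation). Mean log2 CPM used a prior count of 2. Standard errors are the absolute log2 fold change over the square root of F. Common biological variation was 0.180. Alternatives were DESeq2 1.42.0, limma 3.58.1 (voomWithQualityWeights), other normalizations and filters, all 15 samples, a Y-linked covariate, estimation without robustness, and leaving out each replicate. Symbols and coordinates came from GENCODE M21 and matched 55141 of 55487 genes. Counts may include PCR copies.

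The groups and the 40 gene lists (840 of 850 entries matched) were chosen with earlier results of these data known. Named genes are *Otulin*, *Krt14*, the 20 higher and 10 lower genes with the smallest p, and from each list up to 3 members with the smallest p. Of a list without tested members the most counted one may be named, and any IFN gene. Other genes were picked after their values were seen. Promoter stretches overlapping an annotated exon were not shown. Some genes of the lists are not reported here by name.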

Additional observations from a re-analysis of the deposited data

Results flagged for a closer look

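In 146 groups of 5 libraries (total counts, list means and the ranked genes), 14 values lay apart from the other 4 by Dixon's criterion for 5 samples (a gap of over 0.71 of the range). Chance flags about 1 group in 20.

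In WT, mean log2 CPM lay apart for the hair keratin list at 5.74 (group median 4.45) and the epidermal keratin list at 8.94 (median 9.26), for the IRF list at 5.45 (median 5.25), for the IFIT and OAS list at 2.73 (median 3.16), and for all IFN-related lists together at 4.61 (median 4.41). The Y-linked list was at -0.25 in 1 library of each group, WT replicate 1 and non-lesional replicate 12. Among ranked genes in WT, *Slc4a4* was at 25.6 CPM (median 36.0) and *Inpp5f* at 33.0 CPM (median 40.5).

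In non-lesional libraries, the IRF list was at 5.05 (median 5.42), the linear ubiquitin list at 4.62 (median 4.79), the cornified envelope list at 6.69 (median 7.04), the nuclear respiratory chain list at 6.40 (median 6.71) and *Inpp5f* at 22.5 CPM (median 29.2). What sets these libraries apart was not tested.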

How the results depend on the processing

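The count of genes with an adjusted p under 0.05 was 0 in the edgeR fit, 1 with DESeq2, 18 without a filter on low counts and 0 to 5 when a replicate was left out, with 5 without non-lesional replicate 6; the cause was not tested. It was 0 under the other alternatives. The median of the IFIT and OAS list, which rests on 3 tested genes, was 0.68 with DESeq2, 0.81 without a filter, 0.89 with at least 10 counts in every sample, 1.20 with all 15 samples and 1.44 to 1.95 when a replicate was left out; 15 members entered the first pair of settings, 2 the third and 4 the fit with all 15 samples. The number of effectors with an unadjusted p under 0.05 was 11 with at least 10 counts in every sample, 7 with all 15 samples and 15 to 22 when a replicate was left out. Leaving out a replicate gave medians of 0.31 to 0.57 for the ISG15 and PARP9-DTX3L list and 0.29 to 0.47 for the 3 effector lists together. A group-blind mean of 10 counts, an alternative chosen after seeing the data, gave 0.36. Genes without overlap numbered 78 to 126 above and 57 to 91 below WT when a replicate was left out, where fewer libraries make separation easier by construction, and 23 below WT with library totals as scaling. Genes with an unadjusted p under 0.05 numbered 636 higher and 599 lower without a filter and 145 and 121 with all 15 samples.

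Of the values of 84 named genes under these alternatives, 6 changed sign, all within 1 standard error of 0 in the edgeR fit. With a replicate left out, *Ifnar1* ranged from -0.28 to 0.41, *Rnf31* from -0.27 to 0.010 and *Krt14* from -0.047 to 0.34. *Ifnar1* was 0.044 with limma and 0.0013 with the Y-linked covariate. No paired analysis was made, because no label ties a WT library to a non-lesional one by litter or animal. The fit therefore ignores any pairing of littermates, and a pairing by the order of replicate numbers was not tested. Depth limited the 32 effectors with too few counts to be tested, which summed to 471 counts in WT and 721 in non-lesional libraries.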
